A study of Drosophila melanogaster with 9 samples.

Results

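The copies of 21 families of non-LTR retrotransposons annotated in the Drosophila melanogaster genome were followed through ribosome fractions of adult heads. A row of the gene table was taken when the annotation calls it a transposable element and the name of its family, the part of the symbol before the braces, is on the list of BS, BS3, Cr1a, Doc, Doc2-element, Doc3-element, F-element, G-element, I-element, jockey, jockey2, Juan, X-element, Rt1a, Rt1b, Rt1c, Ivk, baggins, R1A1-element, HeT-A and TART-A. The annotation writes 7 of these families wholly or mostly without the word element (F{} for the F-element), and both spellings were taken. This gave 896 copies, of 5576 transposable element copies and 23932 features in all. The rule itself uses no measured value, but the list of families was chosen with earlier results of these data known. A count was present in at least 1 library for 791 copies and in none for 105. The 280 copies with 10 counts or more in at least 3 of the 9 libraries were tested singly, and all 896, low copies included, entered the family sums. A copy that is high in only 1 fraction can pass this minimum through that fraction alone, so the tested copies are not a sample of all copies.

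RNA was sequenced from heads of wild type Dahomey flies that had received no treatment, and all groups share this strain and tissue. The 3 80S monosome libraries hold RNA from the sucrose gradient fractions with single ribosomes, the 3 polysome libraries RNA from the fractions with several ribosomes on an RNA, and the 3 total RNA libraries RNA from a part of the same lysate kept before the gradient. The fractions were compared pairwise to ask which RNAs are found with 80S monosomes and which with polysomes. The copies of the reference genome stand in for the insertions that Dahomey flies carry, which were not determined. Nothing in the labels states that replicates came from separate collections, and the p-values measure the spread between these libraries.

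Non-LTR retrotransposons are LINE-like elements that move by copying their own RNA back into the genome. In many families, though not in all, a complete element is transcribed from its own promoter as an RNA with a poly(A) tail. The RNA of most families encodes a nucleic acid binding protein and a second protein with endonuclease and reverse transcriptase activity. It thus has to be translated before the element can move. Most copies in a genome are cut short at the 5′ end and cannot move, and a copy inside a gene can be read as part of the transcript of that gene. In flies the piRNA pathway, with piwi, represses these elements in the gonad, and small interfering RNAs with AGO2 and Dcr-2 act on them in body tissues.

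Library totals lay between 13555484 counts in polysome replicate 1 and 44096558 in 80S monosome replicate 3. Levels are given as CPM, the count of a row scaled to a fixed library total with TMM factors, with families and single copies scaled in separate tables. In the authors' counting a read with several mapping places, or with several features of its strand under it, was divided into fractions, and 80.5% of the values above 0 of the listed copies were not whole numbers within 0.005, against 49.3% for features that are no transposable element. Copies of a family thus share reads and are not independent. With the aligner's default settings a read that fits more places than a set maximum is not placed, and the share of non-LTR reads lost in this way is unknown. Markers of neurons summed to 4051 to 7381 CPM and of photoreceptors to 12306 to 21024 CPM across the 9 libraries. Summed female germline markers lay at 337 to 412 CPM, most of it BicD, orb and gus, which other tissues also use, while the oocyte mRNA osk had 4.11 to 14.8 CPM. The male germline list summed to 816 to 4037 CPM, nearly all of it Pif1A, while its members Mst87F, ProtA, dj and aly stayed at or under 0.178 CPM. Of its 10 genes 5 reached the minimum of counts and were tested, among them Pif1A, fzo, CycB3 and topi. In bulk libraries fewer cells of a type and less RNA per cell cannot be told apart.

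The listed copies together held 0.209% to 0.253% of the counts of the 80S monosome libraries, 0.254% to 0.466% of the polysome libraries and 0.126% to 0.145% of the total RNA libraries. Cr1a, BS and Doc made up 73.1% to 87.7% of this. Summed to 1 value, the listed copies had 2164, 2099 and 2458 CPM in 80S monosomes, 5071, 2488 and 3037 CPM in polysomes, and 1451, 1222 and 1264 CPM in total RNA. Every ribosome fraction library was thus above every total RNA library, and every polysome library above every 80S library, although polysome replicate 2 lay close to 80S replicate 3. The sum was higher in polysomes than in total RNA by 1.43 on the log2 scale (SE 0.22, adjusted p = 0.000686, edgeR quasi-likelihood test with Benjamini-Hochberg adjustment, threshold 0.01). In polysomes over 80S monosomes the value was 0.66 (SE 0.22, adjusted p = 0.0618), and in 80S monosomes over total RNA 0.77 (SE 0.22, adjusted p = 0.0208), and neither passed the test. Leaving out polysome replicate 1 or 2 brought the latter past the threshold (adjusted p = 0.00151 and 0.00754) at about the same value of 0.77, while in polysomes over 80S monosomes the value was 0.32 without polysome replicate 1 and 0.86 without polysome replicate 2, not past the threshold in either case. All other transposable element copies, summed in the same way, had values of 1.43 in polysomes over 80S monosomes (adjusted p = 0.000712), −0.09 in 80S monosomes over total RNA (adjusted p = 0.749) and 1.33 in polysomes over total RNA (adjusted p = 0.00057). The difference between the sums was not tested.

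**Figure D1:**
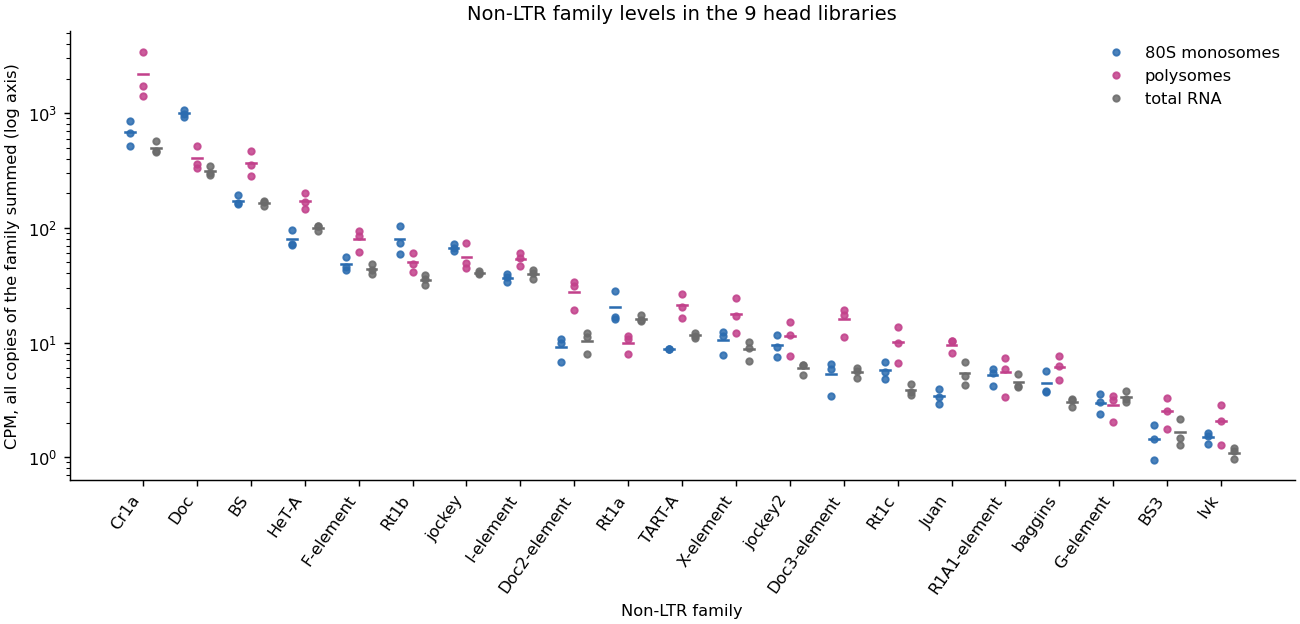
Level of each non-LTR family, all its copies summed, in CPM on a log axis. Each point is 1 of 9 libraries, short lines are means of 3, and colours mark 80S monosomes, polysomes and total RNA. Cr1a is highest in polysomes (1417 to 3438 CPM), whereas Doc is highest in 80S monosomes (929.8 to 1060.4 CPM).

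In polysomes over 80S monosomes, 9 of the 21 family sums were higher and 2 were lower at an adjusted p under 0.01. Of the 11724 genes and family sums in that table, 5.65% were called higher and 2.38% lower. The median log2 fold change was 0.73 over the 21 families and −0.05 over all rows tested. Unadjusted p-values were under 0.05 for 16 families. The higher families were BS, Cr1a, Doc2-element, Doc3-element, F-element, HeT-A, I-element, Juan and TART-A, and the lower were Doc and Rt1a. For comparison, 52 of 113 other transposable element families were higher and 3 lower. The count of lower families fell to 1 without 80S replicate 3, without polysome replicate 2 or 3, or without any of the total RNA replicates, as the call on Rt1a was then lost. In 7 families a single copy held 50% or more of the counts.

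**Figure D2:**
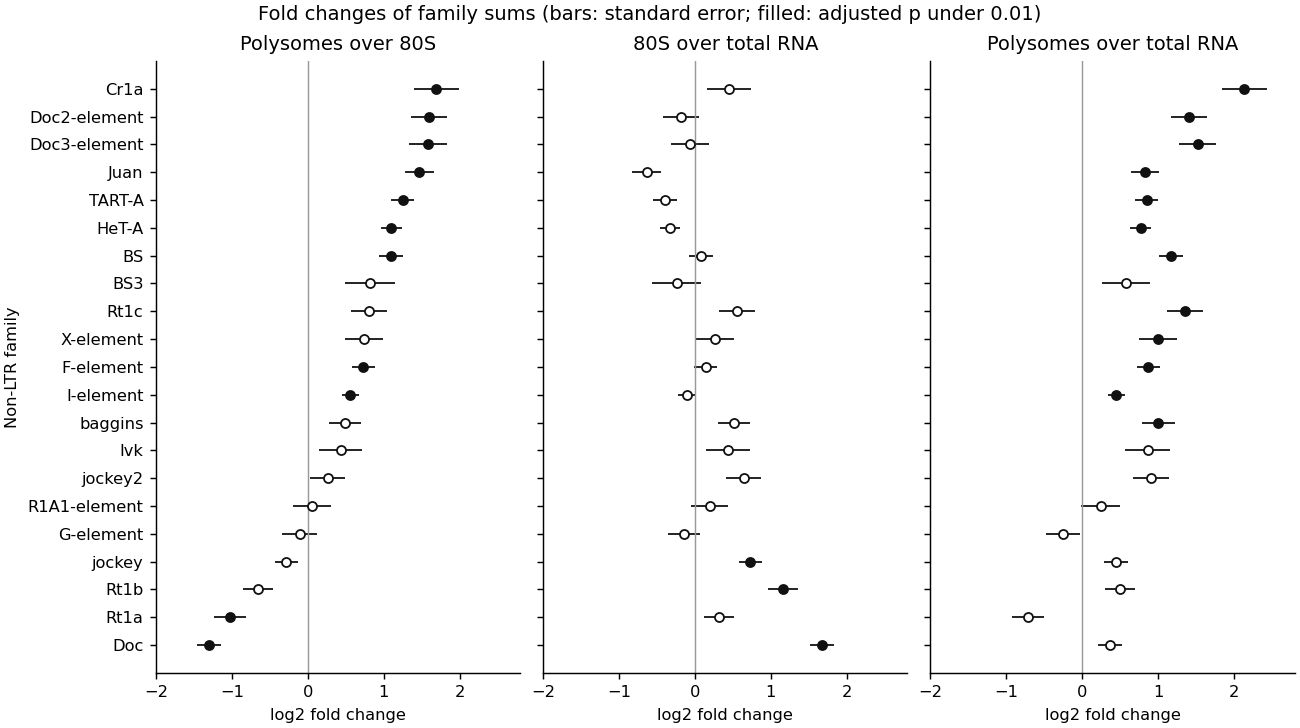
Log2 fold change of each family sum in the 3 comparisons, ordered by polysomes over 80S monosomes. Bars are standard errors and filled points have an adjusted p under 0.01. Doc lies at −1.30 in polysomes over 80S monosomes and at 1.67 in 80S monosomes over total RNA, and Cr1a lies at 1.69 and 0.45.

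The telomeric families come first. HeT-A and TART-A transpose to chromosome ends, where their tandem copies take the place of telomerase repeats, and HeT-A encodes the nucleic acid binding protein but no reverse transcriptase of its own. HeT-A had 70.5, 72.4 and 95.2 CPM in 80S monosomes, 166.6, 145.1 and 199.6 CPM in polysomes, and 103, 93.9 and 102.7 CPM in total RNA. All polysome libraries were above all others, while 80S monosomes and total RNA overlapped. The rise in polysomes over 80S monosomes was 2.14-fold (log2 1.10, SE 0.14, adjusted p = 0.000359), and over total RNA it was 1.71-fold (log2 0.77, SE 0.14, adjusted p = 0.0016). Between 80S monosomes and total RNA the value was −0.33 (adjusted p = 0.0932), which passed the test only with the replicate number as a block (adjusted p = 0.000935).

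Of the 26 HeT-A copies 24 lie outside genes, and 15 of the 26 are on chromosome 4 and 10 on the X. Its most abundant copy, HeT-A{}4800, is a 6006-base copy on the plus strand near the left end of the X (X:116487-122492) that held 30.8% of the family's counts. It had 19.8, 20.0 and 29.1 CPM in 80S monosomes, 51.1, 48.4 and 66.3 CPM in polysomes, and 29.6, 26.6 and 30.0 CPM in total RNA. Polysomes were again above both other groups (log2 fold change over 80S monosomes 1.26, SE 0.16, adjusted p = 0.000265). Without that copy the family sum had a log2 fold change of 1.004 (adjusted p = 0.000414). Of the 12 copies tested, 11 had a positive value and 5 were called higher, where 7.90% of all rows in the table of single copies were called higher. In the chromosome 4 array, copies chosen after their values were seen differed from each other, since HeT-A{}6269 had a log2 fold change of 1.25 (adjusted p = 0.000481) and HeT-A{}6278 of 0.17 (adjusted p = 0.501).

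TART-A, which does encode a reverse transcriptase, had 8.86, 8.76 and 8.81 CPM in 80S monosomes, 26.6, 16.4 and 20.3 CPM in polysomes, and 11.0, 12.2 and 11.5 CPM in total RNA. Its sum was higher in polysomes by 1.25 over 80S monosomes (adjusted p = 0.000297) and by 0.85 over total RNA (adjusted p = 0.00152). A single copy in a gene held most of its counts. The copy TART-A{}5266, 422 bases on the minus strand at X:9678736-9679157, overlaps an exon of nej, the histone acetyltransferase of the CREB-binding protein family, with 71.0% of the counts. The gene nej itself had 317 to 396 CPM in 80S monosomes and 1074.5 to 1475 CPM in polysomes, with a log2 fold change of 1.87 (adjusted p = 5.57e-06). Without TART-A{}5266 the family had a log2 fold change of 0.17 in polysomes over 80S monosomes (adjusted p = 0.67) and of −0.24 in polysomes over total RNA (adjusted p = 0.442). The array copies TART-A{}6261 and TART-A{}6259 on chromosome 4, each over 12 kb and sharing their reads, both had a log2 fold change of 0.996 (adjusted p = 0.0444), and were singled out after their values were seen.

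Doc was the family most shifted towards 80S monosomes. It had 1060.4, 929.8 and 990.1 CPM in 80S monosomes, 519, 329.6 and 364 CPM in polysomes, and 346, 289 and 302 CPM in total RNA. The 80S libraries lay far above all others, and polysomes and total RNA overlapped. Doc was 2.46-fold lower in polysomes than in 80S monosomes (log2 −1.30, SE 0.16, adjusted p = 0.000264) and 3.18-fold higher in 80S monosomes than in total RNA (log2 1.67, SE 0.16, adjusted p = 6.04e-05). In polysomes over total RNA the log2 fold change was 0.37 (adjusted p = 0.0817), called only with the replicate block (adjusted p = 0.00135).

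A single locus held 65.1% of the Doc counts. Doc{}CHKov1[Doc1420] is a 4516-base copy on the minus strand at 3R:25324412-25328927 that overlaps an exon of CHKov1, a gene of the choline kinase-like group whose Doc insertion is known as a polymorphism linked to insecticide and virus resistance. The copy had 792, 624 and 643 CPM in 80S monosomes, 297, 194 and 206 CPM in polysomes, and 221, 183 and 194 CPM in total RNA. CHKov1 was counted at 326, 261 and 262 CPM in 80S monosomes, 166, 109.1 and 108 CPM in polysomes, and 107, 86.9 and 92.7 CPM in total RNA. Both fell, with log2 fold changes in polysomes over 80S monosomes of −1.56 (adjusted p = 5.32e-05) and −1.15 (adjusted p = 0.000552), and reads over both were split between them.

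Without the CHKov1 copy the Doc sum had log2 fold changes of −0.93 in polysomes over 80S monosomes (adjusted p = 0.00229) and 1.46 in 80S monosomes over total RNA (adjusted p = 0.000158). Restricted to copies outside genes, these values were −0.94 (adjusted p = 0.0028) and 1.42 (adjusted p = 0.000243). All 69 Doc copies tested had negative values in polysomes over 80S monosomes, from −1.58 to −0.34, and positive values in 80S monosomes over total RNA, from 0.45 to 2.74. Of these, 30 were called lower in the former and 60 higher in the latter. Of all 13016 rows in the table of single copies, 4.15% were called lower in the former and 6.58% higher in the latter. Doc copies are long, with a median of 4709 bases, and because copies of a family share divided reads they are no count of separate events.

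Among the single Doc copies, Doc{}1101, 1074 bases on the strand opposite to CG33170 on 3L, had the highest value in 80S monosomes over total RNA (log2 2.74, SE 0.34, adjusted p = 0.000307). Its levels were 2.54, 4.01 and 5.83 CPM in 80S monosomes, 2.58, 1.37 and 1.60 CPM in polysomes, and 0.611, 0.563 and 0.74 CPM in total RNA. Doc{}1418, opposite to tok on 3R, had the lowest value of the family in polysomes over 80S monosomes (log2 −1.58, SE 0.24, adjusted p = 0.000893), with 1.75 to 2.22 CPM in 80S monosomes and 0.608 to 0.687 CPM in polysomes. The gene tok, a tolloid-like protease, lay at 0.28 in the same comparison (adjusted p = 0.0508, and 0.0017 with the replicate block). Doc{}1085, opposite to the syntrophin gene Syn1, and Doc{}1362, outside genes, had log2 fold changes in 80S monosomes over total RNA of 2.19 (adjusted p = 0.000344) and 2.01 (adjusted p = 0.000357).

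Doc2-element and Doc3-element, relatives of Doc in the jockey clade, were shifted to polysomes instead. Doc2-element had 9.95, 6.75 and 10.7 CPM in 80S monosomes, 33.4, 19.1 and 30.8 CPM in polysomes, and 12.0, 7.95 and 11.1 CPM in total RNA. Doc3-element had 5.92, 3.41 and 6.53 CPM, 19.3, 11.2 and 17.3 CPM, and 5.94, 4.93 and 5.64 CPM in the same order. In both families polysomes lay above all other libraries. The rises over 80S monosomes were 1.60 on the log2 scale (SE 0.24, adjusted p = 0.00105) and 1.59 (SE 0.25, adjusted p = 0.00143).

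Doc2{}4272, a 4719-base copy in an intron of the Ste20-like kinase gene Stlk and on its strand, held 81.4% of the Doc2-element counts, and its log2 fold change was 1.65 (adjusted p = 0.000486). Stlk itself had −0.01 (adjusted p = 0.94). Doc3{}Kif3C[1555], 2592 bases on chromosome 4 in an intron of CG32017 and on its strand, held 72.1% of the Doc3-element counts and had 3.94, 2.03 and 4.03 CPM in 80S monosomes against 15.2, 8.10 and 12.5 CPM in polysomes (log2 1.83, SE 0.28, adjusted p = 0.000745). The gene CG32017 was itself higher in polysomes over 80S monosomes (log2 0.49, adjusted p = 0.00098). Without these 2 copies the sums had log2 fold changes of 1.17 (adjusted p = 0.0139) and 0.90 (adjusted p = 0.0246) in polysomes over 80S monosomes, neither past the threshold, and of 1.32 (adjusted p = 0.00402) and 1.11 (adjusted p = 0.00449) in polysomes over total RNA.

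Cr1a, of the CR1 clade, had the largest sum of all families in polysomes. It had 518, 665 and 857 CPM in 80S monosomes, 3438, 1417 and 1724 CPM in polysomes, and 574, 465 and 456 CPM in total RNA. Polysome libraries were above all others and replicate 1, the library with the lowest total, far above the remaining pair. The sum rose 3.22-fold over 80S monosomes (log2 1.69, SE 0.30, adjusted p = 0.00279) and 4.40-fold over total RNA (log2 2.14, SE 0.30, adjusted p = 0.000437). Neither passed with the replicate block (adjusted p = 0.0458 and 0.0135). The former was also lost without 80S replicate 1 or 2 (adjusted p = 0.0118), in the fit of only the 6 libraries compared (0.0117) and with no filter on low counts (0.0141).

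Most of the Cr1a counts lay at 1 locus. Cr1a{}2297 and Cr1a{}1995 overlap each other on the minus strand at 2L:22200858-22209490 and 2L:22201105-22207089, in an intron of Ir40a, which encodes an ionotropic receptor of the humidity-sensing neurons of the antenna. Together they had 483, 644 and 827 CPM in 80S monosomes, 3260, 1358 and 1621 CPM in polysomes, and 529, 430.5 and 415 CPM in total RNA. Ir40a was counted at only 0.55 to 1.22 CPM in any library and had a log2 fold change in polysomes over 80S monosomes of −0.27 (adjusted p = 0.543). Singly, each copy had 1.67 in polysomes over 80S monosomes (adjusted p = 0.0022, 0.045 with the replicate block and 0.0127 without 80S replicate 2). Each copy also overlaps 3 other transposable element copies of its strand, so a read there was divided. Without this pair the Cr1a sum had log2 fold changes of 0.67 in polysomes over 80S monosomes (adjusted p = 0.00857) and 0.41 in polysomes over total RNA (adjusted p = 0.0436). The 83 Cr1a copies outside genes summed to 11.0 to 14.2 CPM in 80S monosomes, 11.1 to 16.3 CPM in polysomes and 12.7 to 14.1 CPM in total RNA, with overlapping groups and a log2 fold change in polysomes over 80S monosomes of 0.19 (adjusted p = 0.465).

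Cr1a{}1607 stood apart among the other Cr1a copies. It is a 4110-base copy on the plus strand at 3L:23279468-23283577, in an intron of nAChRalpha4, a nicotinic acetylcholine receptor subunit. The copy overlaps 2 other transposable element copies of its strand, so reads there were divided. It had 3.15, 1.93 and 3.51 CPM in 80S monosomes, 13.56, 10.8 and 12.6 CPM in polysomes, and 7.41, 5.92 and 6.90 CPM in total RNA. The 3 groups did not overlap, with log2 fold changes of 2.10 in polysomes over 80S monosomes (SE 0.21, adjusted p = 3.65e-05) and −1.24 in 80S monosomes over total RNA (SE 0.20, adjusted p = 0.00144). The gene nAChRalpha4 lay at −0.01 in both (adjusted p = 0.941 and 0.932). Cr1a{}1559 on chromosome 4, outside genes, fell in polysomes against total RNA (log2 −0.89, adjusted p = 0.00485, up to 0.0311 without polysome replicate 1 or 2 or any total RNA replicate).

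BS rose in polysomes over both 80S monosomes and total RNA. The family had 160.3, 163.6 and 195.1 CPM in 80S monosomes, 469, 285 and 351 CPM in polysomes, and 170.0, 153.7 and 166.4 CPM in total RNA. Polysomes were above all other libraries, and 80S monosomes and total RNA overlapped. The rise was 2.13-fold over 80S monosomes (log2 1.09, SE 0.16, adjusted p = 0.000884) and 2.25-fold over total RNA (log2 1.17, SE 0.16, adjusted p = 0.000359). Its most abundant copy, the 5142-base BS{}1260 at 3R:8043844-8048985 on the minus strand and opposite to CG43060, held 29.1% of the counts and had a log2 fold change of 1.14 (adjusted p = 0.000292), while CG43060 had at most 0.26 CPM. The sum without it had 1.05 (adjusted p = 0.00112), and that of copies outside genes had 1.04 (adjusted p = 0.00136). The 10 BS copies of 1000 bases or more carried nearly all of this, with 155.1 to 184 CPM in 80S monosomes and 274 to 439.8 CPM in polysomes, whereas the 33 shorter copies had 7.05 to 13.4 and 8.61 to 13.9 CPM. Of 15 BS copies tested, 8 were called higher and 0 lower (13 had positive values). In the whole table of single copies, 7.90% of rows were called higher and 4.15% lower.

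BS3, with 0.949 to 1.91 CPM in 80S monosomes and 1.76 to 3.31 CPM in polysomes, had a log2 fold change of 0.82 that passed only with the replicate block (adjusted p = 0.11 without and 0.00426 with it). Juan, by contrast, was low but even. Its 12 copies summed to 2.91, 3.34 and 3.95 CPM in 80S monosomes, 10.4, 8.05 and 10.3 CPM in polysomes, and 6.73, 4.27 and 5.14 CPM in total RNA. Polysomes lay above total RNA and total RNA above 80S monosomes, with no overlap. The rise over 80S monosomes was 2.76-fold (log2 1.47, SE 0.19, adjusted p = 0.000459), and over total RNA 1.78-fold (log2 0.83, SE 0.19, adjusted p = 0.00555). The second call was lost without polysome replicate 1 or 3 or total RNA replicate 2 or 3 (adjusted p up to 0.027). Juan in 80S monosomes over total RNA had −0.64 (adjusted p = 0.0282), called with the replicate block (−0.60, adjusted p = 0.00221).

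All 8 Juan copies tested had values between 1.15 and 1.43 in polysomes over 80S monosomes, and 4 were called. In the whole table of single copies, 7.90% of rows were called higher. The 8 Juan copies are 4226 to 4236 bases long. Reads that fit several of them were divided, so their like values are not independent. They lie on 2L, 2R, 3R and X, and the most abundant, Juan{}RR48345 at 2L:23267989-23272224, had 0.486, 0.702 and 0.66 CPM in 80S monosomes against 1.66, 1.61 and 1.85 CPM in polysomes (log2 1.41, SE 0.25, adjusted p = 0.00211, and 0.0126 without polysome replicate 3).

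F-element, I-element and X-element showed smaller rises. F-element, a family of the jockey clade, had 45.9, 42.5 and 55.5 CPM in 80S monosomes, 93.5, 61.9 and 84.3 CPM in polysomes, and 48.0, 39.5 and 43.2 CPM in total RNA. I-element, the agent of I-R hybrid dysgenesis when it is freed from repression in the female germline, had 33.5, 36.9 and 39.7 CPM in 80S monosomes, 46.7, 54.7 and 60.5 CPM in polysomes, and 42.6, 40.4 and 35.9 CPM in total RNA. Polysomes did not overlap the other groups in either family. The log2 fold changes over 80S monosomes were 0.73 (SE 0.15, adjusted p = 0.0075) and 0.56 (SE 0.11, adjusted p = 0.00654). Both lie near the threshold, since F-element lost the call without any of the 80S replicates, polysome replicate 1 or 3 or total RNA replicate 2 or 3 (adjusted p up to 0.0364), and I-element lost it without any library but polysome replicate 1 (adjusted p up to 0.0372). In the fit of only the 6 libraries compared the adjusted p-values were 0.022 and 0.0206.

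Within these families the copies differed. F{}656 is a 20135-base stretch outside genes on 2R with 24.8% of the F-element counts. It overlaps 1 other transposable element copy of its strand, so reads over both were divided. F{}656 had 8.83, 7.79 and 9.91 CPM in 80S monosomes against 23.8, 19.9 and 21.2 CPM in polysomes (log2 1.29, SE 0.13, adjusted p = 4.53e-05). The 28 F-element copies tested ranged from −1.03 to 1.71, with 15 positive. I{}1677, 3044 bases outside genes at 2L:21413146-21416189, had 0.582, 0.961 and 1.09 CPM in 80S monosomes and 3.95, 3.96 and 3.55 CPM in polysomes (log2 2.06, SE 0.23, adjusted p = 9.83e-05). It was the only I-element copy of 20 tested to be called, where 7.90% of all rows were called higher and 4.15% lower. The most abundant I-element copy, I{}1483 in an intron of the TCF gene pan on chromosome 4, had 0.39 (adjusted p = 0.14), and pan itself 0.73 (adjusted p = 0.00127).

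X-element had 12.4, 7.77 and 11.3 CPM in 80S monosomes, 24.3, 12.1 and 17.0 CPM in polysomes, and 10.2, 6.92 and 9.03 CPM in total RNA. Its rise in polysomes was called over total RNA (log2 1.004, SE 0.25, adjusted p = 0.00954, up to 0.0427 without 80S replicate 3, polysome replicate 1 or 3 or any total RNA replicate), and over 80S monosomes only with the replicate block (log2 0.74, adjusted p = 0.0631 without and 1.04e-05 with it). X{}3139, a 480-base piece in an intron of Stlk, next to Doc2{}4272, had 0.676, 0.368 and 0.518 CPM in 80S monosomes and 3.02, 2.18 and 2.73 CPM in polysomes (log2 2.38, SE 0.34, adjusted p = 0.000489). X{}1606, in an intron of nAChRalpha4, had 0.50 (adjusted p = 0.188). G-element, at 2.04 to 3.54 CPM in ribosome fractions, had −0.11 (adjusted p = 0.786), and the sign rested on G{}3727, without which it was 0.92 (adjusted p = 0.0478). G{}3727 fell in polysomes against total RNA (log2 −1.43, adjusted p = 0.00511, up to 0.029 without polysome replicate 2 or 3 or any total RNA replicate).

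The Rt1 families of the R1 clade were split. Rt1a had 28.0, 16.1 and 16.7 CPM in 80S monosomes, 11.4, 7.91 and 10.6 CPM in polysomes, and 17.4, 15.7 and 15.3 CPM in total RNA. Rt1b had 104.7, 59.2 and 73.8 CPM in 80S monosomes, 60.8, 41.6 and 48.4 CPM in polysomes, and 38.5, 31.6 and 35.9 CPM in total RNA. In both, 80S monosome replicate 1 was the highest library. Rt1a was 2.03-fold lower in polysomes than in 80S monosomes (log2 −1.02, SE 0.21, adjusted p = 0.00717, up to 0.029 without 80S replicate 3, any polysome replicate or any total RNA replicate, and 0.0217 in the fit of only the 6 libraries compared). Rt1b was 2.23-fold higher in 80S monosomes than in total RNA (log2 1.16, SE 0.19, adjusted p = 0.00176, and 0.0111 without total RNA replicate 2). Its value of −0.66 in polysomes over 80S monosomes was called with the replicate block (adjusted p = 0.0391 without and 2.14e-06 with it).

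The Rt1a copies furthest towards 80S monosomes were long. Rt1a{}1276 (5177 bases, opposite to lncRNA:CR46350 on 3R), Rt1a{}957 (5178 bases, in an intron of CG7213 on 3L) and Rt1a{}905 (5193 bases, opposite to the phosphatase gene Ptp61F on 3L) had log2 fold changes of −1.73, −1.64 and −1.60 in polysomes over 80S monosomes (adjusted p = 0.00301, 0.00188 and 0.00159). The call on Rt1a{}1276 was lost without polysome replicate 2 or 3 (adjusted p up to 0.0155). Rt1a{}1276, for example, had 5.62, 2.69 and 2.71 CPM in 80S monosomes, 1.25, 0.818 and 1.23 CPM in polysomes, and 1.18, 0.969 and 1.04 CPM in total RNA. Ptp61F had −0.27 (adjusted p = 0.025, and 0.00257 with the replicate block). The most abundant Rt1a copy had another pattern. Rt1a{}5155 is a 75-base piece at 3L:12187580-12187654 that overlaps an exon of Miox, the myo-inositol oxygenase gene, and it had 1.98 to 2.37 CPM in 80S monosomes, 1.98 to 2.20 CPM in polysomes and 8.01 to 9.12 CPM in total RNA (log2 −1.96 in 80S monosomes over total RNA, SE 0.14, adjusted p = 8.13e-06). Miox lay at −0.70 (adjusted p = 0.00426). With this piece the Rt1a sum had −0.71 in polysomes over total RNA (adjusted p = 0.0224, and 6.30e-05 with the replicate block), and without it −0.01 (adjusted p = 0.987). The 13 Rt1a copies outside genes had a log2 fold change in polysomes over 80S monosomes of −0.00 (adjusted p = 0.996).

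In Rt1b, the 5195-base Rt1b{}990 at 3L:13574910-13580104, opposite to the RNA-binding protein gene bru3, had 17.9, 12.1 and 14.6 CPM in 80S monosomes, 8.11, 6.24 and 6.80 CPM in polysomes, and 8.02, 7.17 and 7.44 CPM in total RNA (log2 −1.08 in polysomes over 80S monosomes, SE 0.16, adjusted p = 0.00058). The gene bru3, on the other strand, went the opposite way (0.96, adjusted p = 4.13e-05). Of 18 Rt1b copies tested 6 were called lower in polysomes over 80S monosomes, where 4.15% of all rows were called lower, and 10 had positive values. Rt1c, at 4.83 to 6.77 CPM in 80S monosomes and 6.65 to 13.7 CPM in polysomes, had 0.80 (adjusted p = 0.0362, and 0.000262 with the replicate block) and was called in polysomes over total RNA (log2 1.36, SE 0.24, adjusted p = 0.00144).

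Of all 280 copies tested, Rt1c{}10 had the largest rise in polysomes over 80S monosomes. It is an 863-base copy on the plus strand at X:1024762-1025624, in an intron of su(w[a]), a regulator of splicing. It had 0.26, 0.196 and 0.201 CPM in 80S monosomes, 4.14, 1.72 and 3.31 CPM in polysomes, and 0.90, 1.11 and 0.979 CPM in total RNA, with no overlap between groups. Its log2 fold change was 3.79 in polysomes over 80S monosomes (SE 0.38, adjusted p = 4.28e-05), against 0.49 for su(w[a]) itself (adjusted p = 0.0559, and 0.00154 with the replicate block). No 80S library reached the minimum of 10 counts for Rt1c{}10, so the size of this value rests on levels near the floor. Rt1c{}5065, the most abundant copy, in an intron of the RhoGAP gene conu, had 0.31 (adjusted p = 0.374). R1A1-element, at 3.35 to 7.30 CPM in ribosome fractions, had 0.05 (adjusted p = 0.914), and its most abundant copy R1A1{}582 on 2R had −0.34 (adjusted p = 0.406).

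For the remaining families polysomes and 80S monosomes overlapped. The jockey family, after which the clade is named, had 71.6, 63.1 and 66.9 CPM in 80S monosomes, 73.2, 44.2 and 49.1 CPM in polysomes, and 41.9, 39.4 and 40.3 CPM in total RNA. It was higher in 80S monosomes than in total RNA (log2 0.73, SE 0.15, adjusted p = 0.00558, up to 0.0267 without 80S replicate 1 or 3 or any total RNA replicate), and had −0.28 in polysomes over 80S monosomes (adjusted p = 0.245, and 0.00754 at a value of −0.47 without polysome replicate 1). Its most abundant copy, jockey{}477 in an intron shared by sky and CG43739, had 0.96 in 80S monosomes over total RNA (adjusted p = 0.0105, and 1.8e-05 with the replicate block). By contrast jockey{}1630, a 14127-base stretch outside genes on 2R, had 0.602, 0.608 and 0.55 CPM in 80S monosomes and 4.61, 1.97 and 2.96 CPM in polysomes (log2 2.37, SE 0.32, adjusted p = 0.000345). This stretch overlaps 1 other transposable element copy of its strand, so reads over both were divided.

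In jockey2, 78.4% of the counts came from jockey2{}pho[1682] in an intron of the Polycomb group gene pho. That copy overlaps 1 other transposable element copy of its strand. The family sum had 0.26 in polysomes over 80S monosomes (adjusted p = 0.486). It had 0.65 in 80S monosomes over total RNA (adjusted p = 0.0551, and 0.000151 with the replicate block), and in polysomes over total RNA 0.91 (adjusted p = 0.011, and 3.25e-06 with the block). Ivk, of the clade of the I-element and the least abundant family at 0.957 to 2.87 CPM, had 0.43 (adjusted p = 0.348). The family baggins, of the LOA clade, had 0.49 (adjusted p = 0.142). Its most abundant copy baggins{}3517, 172 bases over an exon shared by CG2217 and CG42740, had −1.16 (adjusted p = 0.0518, and 0.00151 with the replicate block), as against −0.91 for the genes (adjusted p = 0.00207), and without it the sum was higher in polysomes by 1.29 (adjusted p = 0.000869).

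Against total RNA, which is the same set of libraries in the following 2 comparisons, 3 families were higher and 0 lower in 80S monosomes, where 5.87% of rows were called higher and 8.75% lower. These were Doc, Rt1b and jockey, and 9 families had an unadjusted p under 0.05. Without total RNA replicate 2 only Doc remained called. With the replicate block 6 were higher, as it added jockey2, Rt1c and baggins, and 2 lower (HeT-A and Juan), where 15.9% of rows were called higher and 20.0% lower, and DESeq2 called 1 lower (Juan). In polysomes over total RNA 12 families were higher and 0 lower, where 10.3% of rows were called higher and 11.5% lower, and 18 had an unadjusted p under 0.05. These were the 9 families that were higher over 80S monosomes, with X-element, Rt1c and baggins. DESeq2, the replicate block and the fit without 80S replicate 1 each called 1 family lower there, Rt1a each time (adjusted p = 6.30e-05 with the block and 0.00188 without that library). The block took the higher families to 16, as it added Doc, jockey, jockey2, Rt1b and Ivk and lost Cr1a. Over all rows of that comparison the block called 18.7% higher and 22.9% lower. In the same comparison the calls on I-element (log2 0.45, adjusted p = 0.00976) and baggins (log2 1.004, adjusted p = 0.00455) rose to adjusted p of up to 0.0507 and 0.0225 with a library left out. For I-element this held for 80S replicate 2 or 3, polysome replicate 2 or 3 and any total RNA replicate, and for baggins for polysome replicate 1 or 3 and any total RNA replicate.

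Tested singly, 35 of 280 copies were higher and 39 lower in polysomes than in 80S monosomes, in a table of 13016 rows of which 7.90% were called higher and 4.15% lower. The lower copies were 30 of Doc, 6 of Rt1b and 3 of Rt1a. The higher ones came from 14 families, with at most 8 (BS) in a family. In 80S monosomes over total RNA 79 were higher and 8 lower, where 6.58% and 9.06% of rows were called, and 60 of the 79 were Doc. In polysomes over total RNA 39 were higher and 5 lower, where 10.6% and 12.2% were called. These counts moved with single libraries, and the shares of all rows called with a library left out were not taken. The lower copies in polysomes over 80S monosomes fell to between 17 and 23 without 80S replicate 2 or 3 or polysome replicate 2 or 3, and the higher ones to 22 without 80S replicate 2. In 80S monosomes over total RNA the higher copies fell to 45 and 47 without total RNA replicate 2 and 3, and the lower ones to 3 or 4 without any 80S replicate or total RNA replicate 1 or 3. In polysomes over total RNA the higher copies fell to 20 or 21 without polysome replicate 3 or total RNA replicate 2 or 3, and the lower ones to between 1 and 3 without any polysome or total RNA replicate. With the replicate block, the lower copies in polysomes over 80S monosomes were 73, the lower copies in 80S monosomes over total RNA 17, and the higher copies in polysomes over total RNA 63. Of all rows, the block called 13.9%, 19.3% and 18.1% in these directions.

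**Figure D3:**
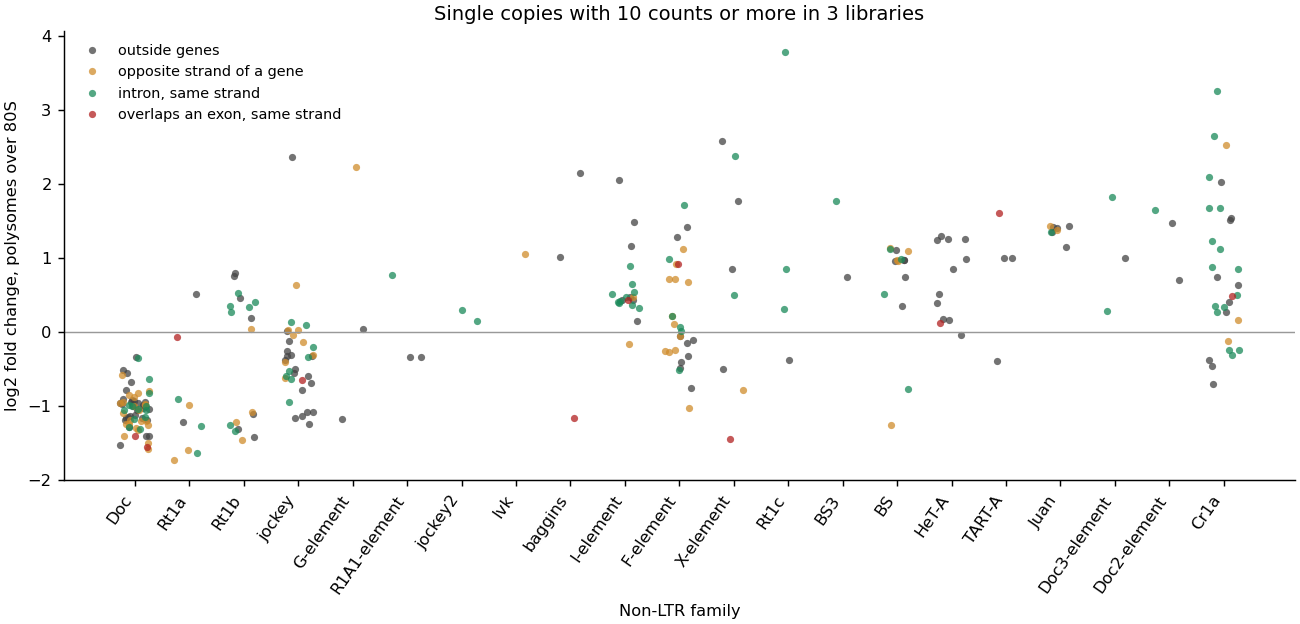
Log2 fold change of polysomes over 80S monosomes for each of the 280 copies tested, by family, with colour for the location of the copy. Horizontal spread within a family has no meaning, and copies of a family share divided reads. All 69 Doc copies lie below 0 and all 8 Juan copies between 1.15 and 1.43, while F-element, Rt1b, jockey and Cr1a copies lie on both sides.

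Across the 280 tested copies, log2 fold change in polysomes over 80S monosomes and log10 length had a Pearson correlation of −0.03, given as a description, since copies share libraries and reads. Within families it was 0.08 over 69 Doc copies, 0.44 over 35 jockey copies and 0.00 over 30 Cr1a copies (−0.000401 before rounding).

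By location, 510 of the 896 copies lie outside genes, 215 on the strand opposite to a gene, 152 in an intron and on the gene's strand, and 19 over an exon on its strand. Copies outside genes summed to 396, 379.7 and 458 CPM in 80S monosomes, 530.3, 385 and 481 CPM in polysomes, and 312, 279 and 296 CPM in total RNA. Ribosome fractions lay above total RNA here, and polysomes overlapped 80S monosomes. Fitted as 1 row, copies outside genes had log2 fold changes of 0.24 in polysomes over 80S monosomes (adjusted p = 0.25), 0.47 in 80S monosomes over total RNA (adjusted p = 0.0191) and 0.71 in polysomes over total RNA (adjusted p = 0.00189). Without the Ir40a and CHKov1 loci, a choice made after their share of the counts was seen, the sum of all listed copies had 0.32, 0.48 and 0.80 (adjusted p = 0.148, 0.0245 and 0.00145). Of these loci, the Cr1a pair was highest in polysomes and the Doc copy in 80S monosomes.

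**Figure D4:**
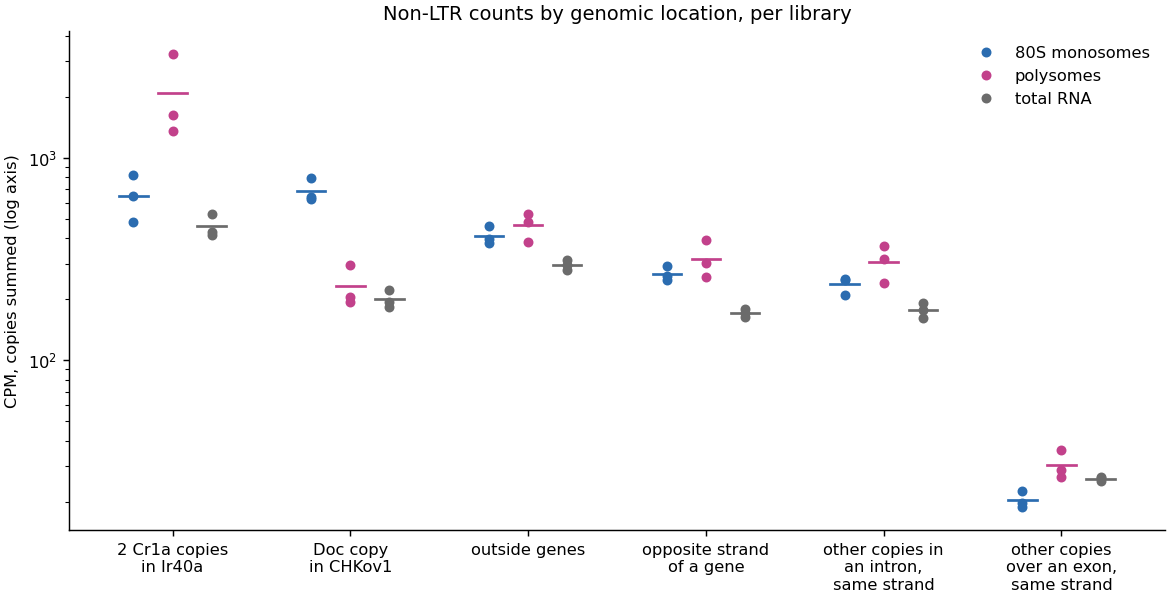
Summed level of the non-LTR copies by location, in CPM on a log axis, with 1 point for each of the 9 libraries and lines for means of 3. The Cr1a pair in Ir40a rises from 415 to 529 CPM in total RNA to 1358 to 3260 CPM in polysomes, and the Doc copy in CHKov1 is at 624 to 792 CPM in 80S monosomes, while the copies outside genes stay between 279 and 530.3 CPM.

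When only copies outside genes entered the sums, 7 families were called higher in polysomes over total RNA and 1 lower in polysomes over 80S monosomes. The share of all rows called in that fit was not taken. Counted per length of annotated sequence, BS was the most abundant family over all libraries at 5.09 CPM per kb, followed by Cr1a at 4.63, Doc at 1.99 and HeT-A at 1.83 CPM per kb. The least abundant was Ivk with 0.0378 CPM per kb.

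Genes that silence transposable elements were read beside their targets from a list of 40, of which 39 were tested. In polysomes over 80S monosomes 0 were higher and 3 lower, in 80S monosomes over total RNA 5 were higher and 1 lower, and in polysomes over total RNA 2 were higher and 2 lower. Shares called over all rows are those given for the table of single copies. The replicate block lost none of these calls and raised the counts to 1 higher and 14 lower in polysomes over 80S monosomes, 11 higher and 2 lower in 80S monosomes over total RNA, and 6 higher and 8 lower in polysomes over total RNA. Over all 13016 rows the block called 12.8% higher and 13.9% lower, 15.3% and 19.3%, and 18.1% and 23.1% in these comparisons. The median log2 fold change of the list in polysomes over 80S monosomes was −0.44, beside −0.08 over all rows. Without the block, the lower genes were piwi, the nuclear Argonaute of the piRNA pathway, Panx, which links piwi to chromatin silencing, and wde, a cofactor of the histone methyltransferase egg. Expression of piwi was low, with 3.48, 3.90 and 7.62 CPM in 80S monosomes, 0.696, 0.794 and 1.79 CPM in polysomes, and 1.9997, 3.02 and 5.37 CPM in total RNA (log2 −2.18, SE 0.47, adjusted p = 0.0063). Panx and wde had −0.61 (adjusted p = 0.00311) and −0.41 (adjusted p = 0.00375). These 3 calls moved with single libraries. The call on piwi was lost without 80S replicate 3 or polysome replicate 1 or 2, that on Panx without 80S replicate 2 or 3, polysome replicate 1 or 3 or total RNA replicate 2, and that on wde without any polysome replicate or total RNA replicate 1 or 2. With a library left out, 1 to 4 genes of the list were lower in polysomes over 80S monosomes. Among the genes that only the block called, rhi, which binds chromatin of piRNA clusters, was higher in polysomes over 80S monosomes (log2 1.08, adjusted p = 0.0441 without and 0.000417 with it), and the helicase gene vas was lower (log2 −1.29, adjusted p = 0.0545 without and 0.000728 with it).

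Of the genes of the small interfering RNA pathway, AGO2 had 324, 330.1 and 324 CPM in 80S monosomes, 280.0, 291 and 288 CPM in polysomes, and 276, 288 and 286 CPM in total RNA (−0.19 in polysomes over 80S monosomes, adjusted p = 0.0925). Dcr-2, the nuclease that makes these RNAs, was higher in 80S monosomes than in total RNA by 0.53 (adjusted p = 0.00141). The Tudor protein gene tud had 1961, 1566 and 1581 CPM in 80S monosomes, 1419, 874 and 985 CPM in polysomes, and 779, 625 and 665 CPM in total RNA (log2 1.30 in 80S monosomes over total RNA, adjusted p = 0.000515). In polysomes over 80S monosomes tud had −0.64, called only with the block (adjusted p = 0.0214 without and 3.27e-06 with it). The telomere capping genes cav, HipHop, moi and ver were not called in any comparison without the block. With it, HipHop (log2 −0.64, adjusted p = 0.00832), moi (−0.45, adjusted p = 0.00969) and ver (−1.48, adjusted p = 0.00248) were lower in polysomes over 80S monosomes, and cav was not called.

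Markers of cell types were read in the same table. Of all its rows, 7.90% were called higher and 4.15% lower in polysomes over 80S monosomes, and 12.8% and 13.9% with the block. Of 9 female germline markers orb rose and wisp fell in polysomes over 80S monosomes, with wisp, the poly(A) polymerase of the oocyte, at −1.72 in polysomes over 80S monosomes (adjusted p = 0.00964). The call on wisp was lost without any 80S replicate, polysome replicate 1 or 2 or total RNA replicate 1 or 2. The block added osk, vas and swa as lower. Neuron markers were higher in polysomes over 80S monosomes for 4 of 6 genes, and their sum lay at 4051 to 4445 CPM in 80S monosomes and 6747 to 7381 CPM in polysomes. Of 5 muscle markers 2 were higher, sls and bt, which encode giant proteins of the sarcomere, and the sum of the list lay at 8673 to 13727 CPM in 80S monosomes and 12174 to 20650 CPM in polysomes. The muscle list as a whole had a median log2 fold change of −0.05, and with the block Mhc was lower. The gene sls had 922, 643 and 737 CPM in 80S monosomes and 5723, 2618 and 4153 CPM in polysomes (log2 2.44, adjusted p = 9.32e-05), and bt had 2196, 1901 and 2260 CPM and 8441, 4561 and 6613 CPM (log2 1.63, adjusted p = 0.000218). Both were highest in polysome replicate 1, the library in which Cr1a and the sum of all listed copies were also highest. This was not particular to sls and bt. In polysome replicates 1 to 3 nej had 1475, 1074.5 and 1300 CPM and su(w[a]) 286, 164 and 216 CPM, whereas CG32017 had 180, 181 and 188 CPM. Glia, fat body and photoreceptor markers were called in polysomes over 80S monosomes only with the block, as 2 of 5, 2 of 5 and 1 of 6 were then lower. Of the 5 male germline markers tested, fzo was higher, and with the block Pif1A was lower. The part of these markers in the non-LTR values was not tested.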

How the data were processed

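RNA from 3 80S monosome, 3 polysome and 3 total RNA samples was sequenced as single reads after rRNA depletion and stranded TruSeq library preparation. The authors trimmed reads with Trimmomatic 0.33, aligned them with STAR 2.7.10a at its default settings to BDGP6.32 (Ensembl release 109) and deposited an estimated count per gene from featureCounts 2.0.1, with reads of several places or features split into fractions, strand used and replicates not pooled. The transcript table was not used. Positions came from Ensembl release 115 of the same assembly (BDGP6.54), which matched 23851 of 23932 features; the 81 others held 0.298% of counts.

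Estimated counts were rounded and fitted in edgeR 4.0.16 (R 4.3.3; TMM scaling, robust quasi-likelihood test, all 9 libraries in 1 fit with group as the only term, Benjamini-Hochberg adjustment over every row tested, threshold 0.01), for rows with 10 counts or more in at least 3 libraries. The table of single copies kept the rows as deposited (13016 tested), and the table of families replaced transposable element copies by family sums (11724 tested). The 3 comparisons share libraries. Tables were made with Python 3.11.15 and pandas 2.3.3. On simulated counts for 200 changed rows (seed 1), the fit recovered 100 of 100 rows changed 4-fold and 78 of 100 changed 2-fold in the table of single copies, with 0 false calls, and 100 and 80 of 100 in the family table, with 5 false calls. Changed rows were drawn only from rows with a higher mean count than the filter requires. All rows had the same fixed dispersion and libraries were independent, so recovery for low or more variable rows was not tested.

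Named copies were the most abundant of each family at 1 CPM or more, and the most changed called copies (up to 5 each way in polysomes over 80S monosomes and 3 in the other comparisons). Members, lists and rules were chosen with earlier results of these data known. Replicate numbers were taken to pair the samples, since total RNA was a part of the same lysate. Deviations from group means correlated at 0.187 to 0.414 in the 9 same-numbered pairs and at −0.327 to −0.00405 in the other 18. Deviations from a group mean sum to 0, so values of the other pairs are tied to those of same-numbered pairs and are no separate support. The main fit did not use the pairing, so its p-values do not measure the spread within pairs. Alternatives were DESeq2 1.42.0, other scalings and filters, 6 libraries only, the replicate block, each replicate left out, a threshold of 0.05, and sums over fewer copies. Of the last, sums by literal symbol and sums without the Ir40a and CHKov1 copies were added after seeing the data.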

Additional observations from a re-analysis of the deposited data

How the results depend on the processing

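Some sums over fewer copies lowered the counts of families in both comparisons of polysomes. The share of all rows called was not taken for these sums, nor for any other setting but the main fit and the block. In polysomes over 80S monosomes, 5 families were higher (9 in the report) with copies outside genes of their own strand, and also 5 with the symbols taken letter for letter, chosen after seeing the data, since 7 families then lose most or all copies; 1 was lower (2 in the report) with copies outside genes of their own or of either strand and in the fit of the 6 libraries compared. Over total RNA, polysomes had 7 families higher (12 in the report) with copies outside genes by either definition, and 1 was lower with DESeq2, the 6 libraries, the replicate block or a threshold of 0.05. In 80S monosomes over total RNA 6 were higher and 2 lower with the block, and 1 lower with DESeq2 or at 0.05. Leaving out a library gave 6 to 9 families higher and 1 to 2 lower in polysomes over 80S monosomes, 1 to 3 higher and 0 lower in 80S monosomes over total RNA, and 8 to 14 higher and 0 to 1 lower in polysomes over total RNA.

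Shares of all rows called were taken only for the main fit and the block. Counts under the other settings thus cannot be set against what all rows did. Of single copies in polysomes over 80S monosomes, 53 were higher at 0.05, and the lower ones were 61 with DESeq2, 25 with 6 libraries, 73 with the block and 74 at 0.05. For 80S monosomes over total RNA 17 were lower with the block and 18 at 0.05. For polysomes over total RNA 60 were higher with DESeq2, 63 with the block and 77 at 0.05, and 8 were lower at 0.05. Leaving out a library gave 22 to 40 higher and 17 to 50 lower, 45 to 84 higher and 3 to 9 lower, and 20 to 51 higher and 1 to 6 lower in the 3 comparisons in that order. The sum of all listed copies in 80S monosomes over total RNA passed with DESeq2 (log2 0.79) and 6 libraries (0.78), and lay between 0.70 and 0.87 with a library left out.

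Directions turned for family values that were not called, except TART-A. In polysomes over 80S monosomes G-element had 0.92 without its top copy, 1.31 for copies of 1000 bases or more, and 0.04 to 0.12 without 80S replicate 3 or polysome replicate 2. Rt1c had −0.087 with copies outside genes of their own strand, and Ivk −0.0100 with those of either strand. R1A1-element had −0.20 and −0.15 with copies outside genes of either or their own strand, −0.060 for long copies and −0.12 to 0.34 with a library left out (below 0 without 80S replicate 2 or polysome replicate 1 or 3). In 80S monosomes over total RNA Rt1c had −0.025 without its top copy, and baggins −0.31 and −0.21 outside genes of either or their own strand, −0.093 without its top copy and −0.23 for long copies. In polysomes over total RNA Rt1a had 0.49 and 0.030 outside genes of either or their own strand and 0.0063 for long copies, and TART-A −0.22 in both and −0.24 without its top copy. The copies that a sum leaves out set these turns by construction. Of the remaining family calls, I-element in polysomes over total RNA was lost with both other filters (adjusted p = 0.0101 and 0.0119) and X-element there with none (0.0134), while DESeq2 added X-element (0.00753), Rt1b (0.00753) and Rt1c (0.00213) in polysomes over 80S monosomes and jockey (0.00516) and jockey2 (0.000129) in polysomes over total RNA, the last also added by both other scalings. For other settings the cause was not tested. The replicate block changed the calls on family sums given in the report and the counts of single copies above. It also added calls among silencing and marker genes, for which the report gives counts, and lost none of theirs.

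With 3 libraries a group the fit recovered most but not all simulated 2-fold changes of well-counted rows, and low rows were not tried. A family without a call is thus not shown to be unchanged. Reads that fit several copies were divided among them or left unplaced, which limits the values of single copies. Counting error is largest for polysome replicate 1, the library with the lowest total.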
